A study of Mus musculus with 10 samples.

Results

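The outermost row of spots of a tissue section was compared with its inside in 6 Visium sections of mouse liver tissue. Visium is a slide carrying a grid of barcoded spots that capture the polyadenylated RNA of the tissue lying on them, and each captured molecule is counted once as a unique molecular identifier (UMI). Spots called over tissue in the deposited position files and holding 2000 or more UMIs were used, and they numbered 16145 of 17281 tissue spots. A margin spot had at least 1 of its adjacent grid spots called off tissue, and an interior spot lay 4 or more neighbour steps from any off-tissue spot. By this rule there were 2098 margin spots and 10510 interior spots, and the 3537 spots at steps 2 and 3 lay between them. The rule used positions and total UMIs and no gene. A spot can hold several cells of different types.

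The sections came from a study of hepatoblastoma, an embryonal liver tumour of early childhood, modelled in mice. In this model, called ABC-Myc, heterozygous for both alleles (Alb-Cre+/wt and CAG-MYC+/wt), Cre driven by the albumin promoter, active in the hepatocyte lineage, removes a stop cassette in front of a human MYC transgene under the CAG promoter. The labels call all 6 sections hepatoblastoma, while their protocol text names both tumor and normal liver without saying which is which, and the study's text counts NEJ634, NEJ687 and NEJ723 among its ABC-Myc tumours. Apart from these and a further tumour, NEJ146, it describes its Visium tissues as healthy livers without naming them, which by elimination leaves NEJ638, NEJ654 and NEJ677, but is not stated in the labels that set the groups here. NEJ634, NEJ723 and NEJ687 (the first trio) and NEJ638, NEJ654 and NEJ677 (the second trio) were therefore shown apart, the difference between the trios was not tested, and each section was the only one of its tissue. The study's control mice were littermates lacking at least 1 of the transgenes, but the genotype of the livers in the second trio and the ages of the animals behind the sections are not given in the sources used here. Against the shared label, interior Afp, the alpha-fetoprotein gene of fetal liver and hepatoblastoma, reached 4570, 3384 and 4142 CPM (UMIs of the gene per 1000000 UMIs of the pool) in NEJ634, NEJ723 and NEJ687. In NEJ638, NEJ654 and NEJ677 it was present at only 9.64, 3.10 and 5.08 CPM. Alb, the albumin gene of hepatocytes, was abundant in all 6 interiors, at 8288 to 14167 CPM in the first trio and 51005 to 82099 CPM in the second.

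At the surface of the liver, a single layer of mesothelial cells covers a thin capsule of fibroblasts and collagen. Inside, hepatocytes change their gene expression between the portal tract and the central vein, and pericentral hepatocytes carry many of the cytochrome P450 enzymes that oxidise drugs and lipids. In a section, the edge can be a natural surface, a cut face or the wall of a vessel or tear. Mitochondrial transcripts are polyadenylated and are counted with the others.

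The sides were of unequal size. NEJ634 had 245 margin and 1167 interior spots, NEJ723 310 and 1505, NEJ687 100 and 3686, NEJ638 557 and 1544, NEJ654 504 and 1185, and NEJ677 382 and 1423. Margin pools summed to 1726490 to 11207705 UMIs and interior pools to 19062574 to 52860443. In NEJ687 the tissue ran to the frame of the array, so that its 100 margin spots describe a short stretch of edge. In NEJ638 the margin was mostly the rim of small gaps: 346 of its 557 margin spots touched an off-tissue patch of fewer than 50 spots and not a larger one, against 6 to 110 in the other sections. Off-tissue spots were not empty. They held 38.1%, 37.5%, 6.81%, 27.3%, 43.0% and 39.5% of all UMIs in NEJ634, NEJ723, NEJ687, NEJ638, NEJ654 and NEJ677. Spots 1 step outside had a higher median depth than the margin in 3 of the 6 sections, with 22306, 21237, 15448, 18759, 20253.5 and 13629 UMIs per spot in that order, against 29000, 16622.5, 14589.5, 19527, 20265 and 11594 at the margin. The stained images behind the in-tissue calls were not analysed here, so the margin is the edge of those calls, and whether it is the edge of the tissue was not tested.

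**Figure D1:**
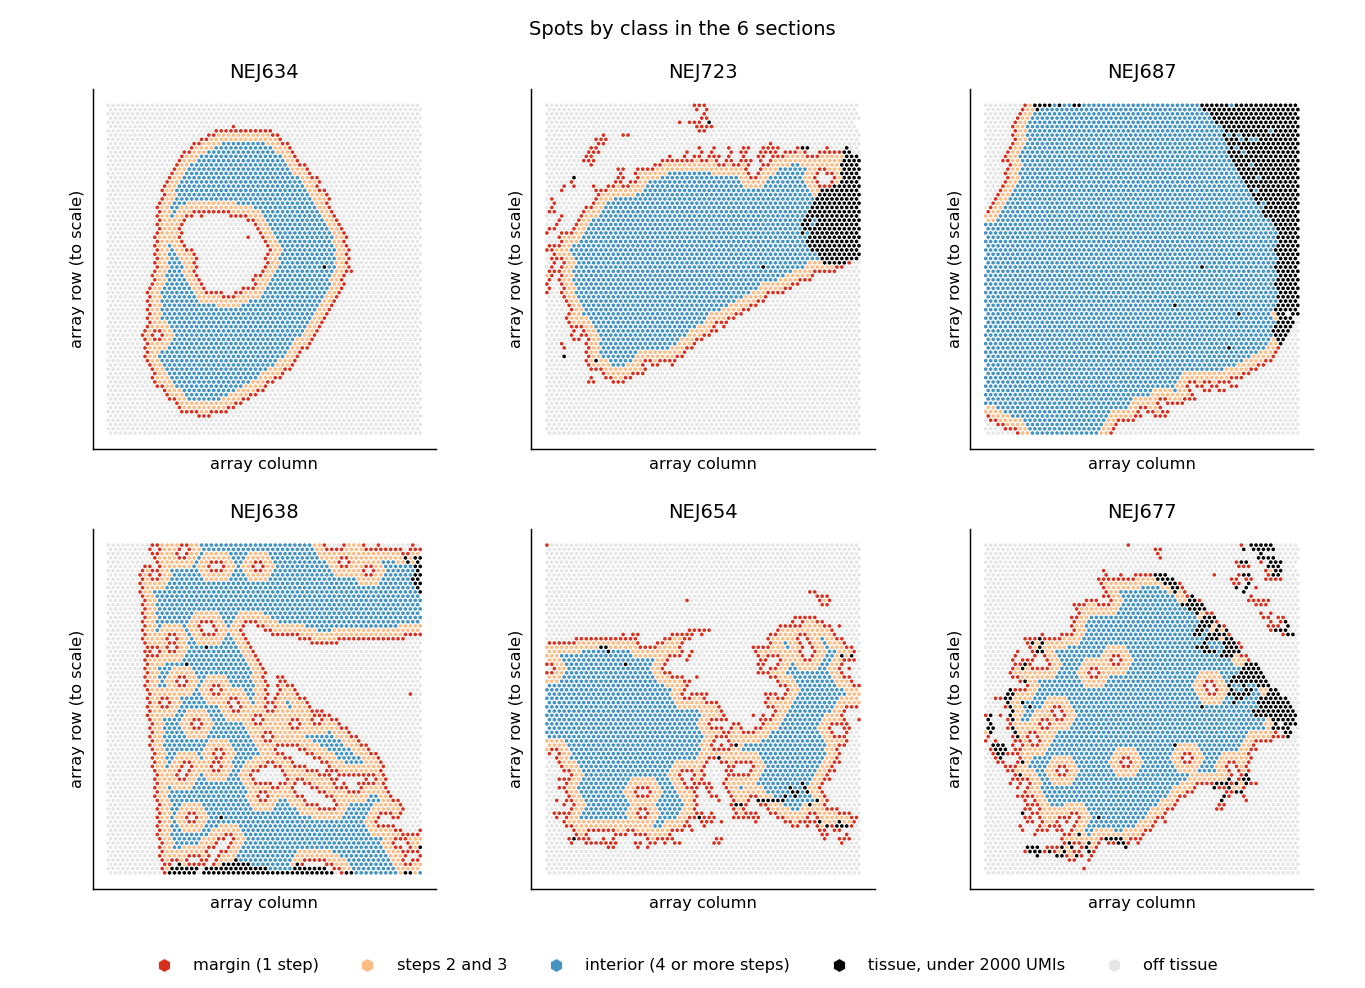
Each panel is 1 section, drawn by array row and column, with every spot coloured as margin, steps 2 and 3, interior, tissue spot under 2000 UMIs or off tissue. The margin is a thin line around the section, broken in NEJ687 where tissue reaches the array frame and scattered through NEJ638 around small gaps.

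Over the 6 sections, few genes separated margin from interior, and those that rose were mostly of the mitochondrial genome and of red cells. Of 12954 genes tested, 17 rose at the margin (0.131%) and 6 fell (0.0463%) at an adjusted p under 0.05 in edgeR's quasi-likelihood test with the section as a block. With RLE size factors and with total counts the split was 20 higher and 2 lower. The median log2 fold change of all genes tested was -0.01. At an unadjusted p under 0.05 there were 1518 genes, 540 of them higher and 978 lower. Of the 17 that rose, 10 were encoded by the mitochondrial genome and others, among them Hbb-bt, Slc4a1, Kel and Trim10, are genes of red cells or their precursors. S100a8, a calcium-binding protein of neutrophils, and a gene model with a Gm name also rose. As in any pooled tissue, a higher level from more cells of a type and from more RNA per cell cannot be told apart. Without NEJ634 there were 4 genes higher and 0 lower, without NEJ677 10 and 2, without NEJ723 14 and 0, without NEJ687 18 and 1, and without NEJ654 12 and 2.

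The mitochondrial share of UMIs was higher at the margin in all 6 sections. It was 4.63% at the margin and 3.61% in the interior of NEJ634, 3.11% and 2.79% in NEJ723, and 6.85% and 3.24% in NEJ687. In NEJ638 it was 3.36% and 2.02%, in NEJ654 3.73% and 2.62%, and in NEJ677 3.89% and 2.66%. Within every section the margin lay above the interior, although the 2 sides overlap between sections. The log2 ratio was 0.57 ± 0.32 (SD, n = 6), with an exact two-sided sign-flip permutation p of 0.03125, the smallest that 6 sections can give, and 0.0625 after adjustment over 4 spot measures. Off-tissue spots 2 or more steps outside had a higher share than the margin in all 6, at 8.65%, 8.46%, 7.73%, 4.79%, 7.06% and 5.27% in the same order. What part RNA lying off the tissue has in the margin level was not tested.

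Gene by gene, 10 of the 13 protein-coding mitochondrial genes rose at the margin over the 6 sections, with a median log2 fold change of 0.61 over the 13. For mt-Co1 (chrM:5328-6872, GRCm38), a core subunit of cytochrome c oxidase, the margin and interior were at 11213 and 9014 CPM in NEJ634, 7786 and 7048 in NEJ723, and 15128 and 7630 in NEJ687. They were at 7025 and 3931 CPM in NEJ638, 9263 and 6150 in NEJ654, and 8134 and 5830 in NEJ677. The margin was higher in each section, least in NEJ723 and most in NEJ687, with a log2 fold change of 0.54 ± 0.10 (SE) and an adjusted p of 0.047. For mt-Nd5 (chrM:11742-13565), a subunit of respiratory complex I, the margin was at 122, 70.5, 237, 126, 152 and 152 CPM and the interior at 84.1, 58.9, 99.7, 70.1, 97.8 and 98.4 CPM in the order NEJ634, NEJ723, NEJ687, NEJ638, NEJ654, NEJ677. Its log2 fold change was 0.68 ± 0.09 (adjusted p = 0.0076). The largest change among the 13 was that of mt-Atp8, a small subunit of ATP synthase, at 0.98 ± 0.12 (adjusted p = 0.0066). The complex I subunits mt-Nd1, mt-Nd2, mt-Nd3 and mt-Nd4 changed by 0.65, 0.74, 0.62 and 0.61, and mt-Co2, mt-Co3 and mt-Atp6 by 0.60, 0.51 and 0.52. The adjusted p was 0.065 for mt-Cytb, 0.081 for mt-Nd4l and 0.92 for mt-Nd6, which did not pass. The number that passed was 3 without NEJ634, 3 without NEJ654 and 3 without NEJ677, and the call of mt-Co1 was also lost without NEJ687.

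The mitochondrial level stepped down from the edge inwards. Summed over the 13 genes, spots at steps 1, 2 and 3 and at 6 or more steps were at 46325, 41370, 39372 and 34839 CPM in NEJ634. In NEJ687 they were at 68507, 52561, 40546 and 32377 CPM, and in NEJ638 at 33624, 25306, 21966 and 19540. In NEJ723 and NEJ677 step 1 alone stood above the steps inside it, at 31137 CPM against 27924 to 28171 at steps 2 and 3 in NEJ723 and 38921 against 26137 to 27372 in NEJ677. Just outside the tissue, at 1 step, the sum was 94992, 75696, 67918, 59813, 65458 and 60893 CPM in NEJ634, NEJ723, NEJ687, NEJ638, NEJ654 and NEJ677, above step 1 in all but NEJ687. At steps 2 and 3 against the interior, 0 of the 13 genes passed the test, with a median log2 fold change of 0.17.

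**Figure D2:**
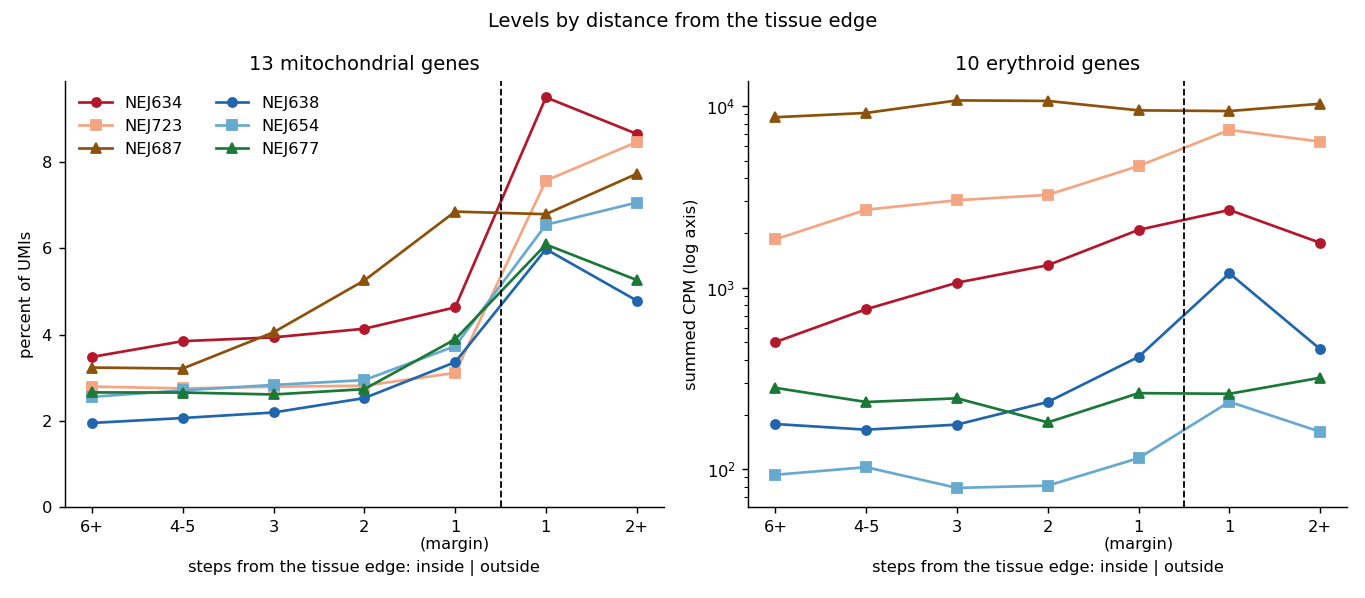
Mitochondrial share of UMIs (percent) and summed CPM of the 10 erythroid genes (log axis) against the distance from the tissue edge in neighbour steps, with 1 line per section and off-tissue spots at the right. The mitochondrial lines are higher outside the tissue than at 6 or more steps inside in every section. The erythroid lines fall from step 1 inwards in NEJ634 and NEJ723, and in NEJ638 as far as steps 4 to 5.

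Margin spots beside off-tissue patches of 50 or more spots had more mitochondrial RNA than those beside smaller gaps only, at 46651 against 25861 CPM in NEJ634, 31557 against 25505 in NEJ723 and 69511 against 52512 in NEJ687. The pairs were 39353 and 27897 in NEJ638, 39091 and 28745 in NEJ654, and 42262 and 31613 in NEJ677. In NEJ634 the larger patches include an enclosed one, described apart with its rim. Gap rims in NEJ634, NEJ687 and NEJ723 rest on 6, 11 and 33 spots, and this comparison was not tested. The median number of UMIs per spot was higher at the margin than in the interior in 3 of 6 sections, with a log2 ratio of 0.08 ± 0.49 (exact p = 0.75). The rule itself cut on UMIs per spot, so this measure is not independent of how the spots were chosen. The share of ribosomal protein genes was slightly higher at the margin in 6 of 6 sections, with a log2 ratio of 0.09 ± 0.08 (exact p = 0.03125, adjusted 0.0625). Genes detected per spot, thinned to 2000 UMIs, had a log2 ratio of -0.0045 ± 0.017 (exact p = 0.469).

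Summed red cell genes were higher at the margin than in the interior in 5 of 6 sections. Summed over 10 erythroid genes, the margin and interior were at 2078 and 589 CPM in NEJ634, 4666 and 1992 in NEJ723, and 9454 and 8692 in NEJ687. They were at 416 and 170 CPM in NEJ638, 115 and 96.7 in NEJ654, and 262 and 264 in NEJ677. The margin stood well above the interior in NEJ634, NEJ723 and NEJ638, slightly above it in NEJ687 and NEJ654, and level with it in NEJ677. Of the 10 genes, 3 rose over the 6 sections, among them Hbb-bt and Slc4a1, and the median log2 fold change was 0.74. For Hbb-bt (chr7:103812524-103813996, minus strand), an adult beta-globin gene, the margin and interior were at 233 and 68.6 CPM in NEJ634, 369 and 152 in NEJ723, and 782 and 640 in NEJ687. They were 29.0 and 9.53 CPM in NEJ638, but 5.65 and 5.35 in NEJ654 and 12.4 and 10.49 in NEJ677. Its fold change was 1.995 (log2 0.997 ± 0.17, adjusted p = 0.035), and globin copies are near-identical, so that reads may be divided among them.

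Slc4a1 (chr11:102348824-102366203), the anion exchanger of the red cell membrane, was at 19.1 and 11.01 CPM at the margin and interior of NEJ634, 93.1 and 43.9 in NEJ723, and 220 and 190 in NEJ687, and under 1 CPM in both pools of the second trio. Kel, a red cell blood group antigen, and Trim10, an E3 ligase of maturing erythroid cells, rose by 0.92 and 1.24 on the log2 scale, and both were under 0.5 CPM in every pool of the second trio, so that these changes rest on the first trio. Kel was named after its values were seen. Within the first trio, 7 of the 10 erythroid genes rose, among them Alas2, the first enzyme of erythroid haem synthesis (log2 fold change 0.76), and Hba-a1, an alpha-globin gene (1.14). In the second trio 0 of 10 passed, with a median log2 fold change of 0.62. The 3 calls over the 6 sections fell to 0 without NEJ634 and to 0 without NEJ723, and the 7 in the first trio to 3 and 2.

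Red cell genes were among the calls at steps 2 and 3 as well. Against the interior, 8 of 13250 genes rose there (0.0604%) and 3 fell (0.0226%), and all of them were named after their values were seen. Those that rose were Cldn13, Kel, Slc4a1, Rhag, Hbb-bt, Tmcc2, S100a8 and Cd24a, with log2 fold changes of 0.71, 0.69, 0.64, 0.59, 0.52, 0.45, 0.29 and 0.26. Kel, Slc4a1 and Rhag are proteins of the red cell membrane and Hbb-bt is a globin gene. Of the 10 genes of the erythroid list, 2 passed, Hbb-bt and Slc4a1. Cldn13, Kel, Slc4a1 and Rhag were under 0.5 CPM in the pools of the second trio at these steps and in its interiors, so that their calls rest on the first trio. Those that fell were Igf2, Ccdc152 and Scd2, with log2 fold changes of -0.27, -0.31 and -0.40. With total counts the split was 10 higher and 1 lower, and with DESeq2 it was 1 and 0. These calls share their interior pools with those of the margin. There was 1 gene higher without NEJ634, 2 without NEJ723 and 4 without NEJ638, and the genes lower were 5 without NEJ654 and 1 without any of NEJ634, NEJ723, NEJ638 and NEJ677.

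S100a8 (chr3:90668978-90670035) was the 1 neutrophil gene of 9 tested that rose over the 6 sections. Its margin and interior levels were 383 and 180 CPM in NEJ634, 119 and 91.1 in NEJ723, 499 and 284 in NEJ687, 7.76 and 4.30 in NEJ638, 2.42 and 2.99 in NEJ654, and 2.99 and 2.15 in NEJ677. The margin was higher in all sections but NEJ654, with a log2 fold change of 0.69 ± 0.10 (adjusted p = 0.015). In the first trio its partner S100a9 rose as well (0.59 ± 0.13, adjusted p = 0.015).

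Over the 6 sections, 6 genes fell at the margin. Fcna (chr2:25624666-25628030), a ficolin made by liver macrophages, was at 60.9 and 73.3 CPM in NEJ634, 63.3 and 73.4 in NEJ723, 131 and 175 in NEJ687, 47.6 and 69.7 in NEJ638, 104 and 117 in NEJ654, and 111 and 120 in NEJ677. The margin was lower in 6 of 6 sections, with a log2 fold change of -0.30 ± 0.06 (adjusted p = 0.048). Emc1, a subunit of a membrane protein insertion complex of the endoplasmic reticulum, was also lower in 6 of 6, at -0.24 ± 0.05 (adjusted p = 0.048). The same sign in 6 of 6 sections was a condition of the rule that named Fcna and Emc1. The calls of Fcna and Emc1 were lost when any 1 section was left out. The other four, Igf2, Acss1, Shbg and Slc36a2, were under 1 CPM in every pool of the second trio, so that their fall rests on NEJ634, NEJ723 and NEJ687. Acss1, Shbg and Slc36a2 were named after their values were seen.

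**Figure D3:**
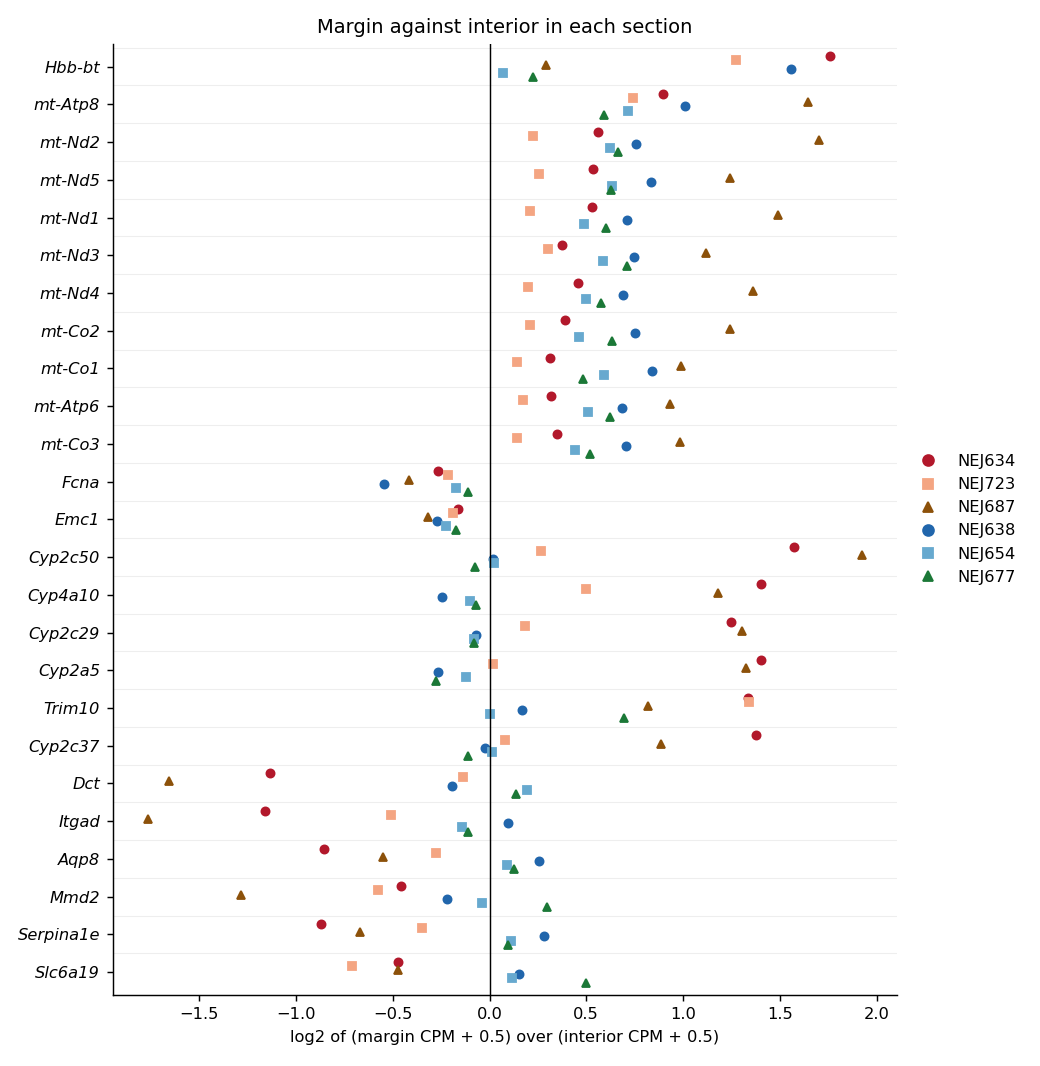
Log2 ratio of margin to interior CPM (0.5 added to each) for the 25 genes named by rule, with 1 point per section and the 2 trios in different colours. Mitochondrial genes and Hbb-bt lie right of 0 in all 6 sections, as the rule that named them required. Cyp4a10, Cyp2a5, Cyp2c29, Aqp8, Serpina1e and Slc6a19 lie on opposite sides of 0 in the first and second trio.

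In the first trio, many more genes passed the test. There 152 genes rose at the margin (1.17%) and 444 fell (3.43%), out of 1998 at an unadjusted p under 0.05. Of the 152, 29 were under 1 CPM in both pools of NEJ723, against 0 of the 444, so that those 29 rest on NEJ634 and NEJ687. In the second trio 6 rose (0.0463%) and 0 fell (0%), out of 814 at an unadjusted p under 0.05, 472 of them higher and 342 lower. The split of the first trio depended on the scaling between pools. It was 160 higher and 253 lower with RLE size factors, and 183 higher and 151 lower with total counts. Without NEJ634 the first trio had 63 genes higher and 288 lower, and the number lower was 189 without NEJ723, 279 without NEJ687, and 236, 156 and 180 without NEJ638, NEJ654 and NEJ677, which share its estimate of the spread.

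Of the 6 genes that rose and were named by rule in the first trio (the same sign in 3 of 3 sections and 5 CPM or more on average), 5 were cytochrome P450 genes. Cyp2c50 (chr19:40089688-40113950) was at 38.9 CPM at the margin and 12.8 in the interior of NEJ634, 0.176 and 0.0631 in NEJ723, and 45.2 and 11.5 in NEJ687. In NEJ638, NEJ654 and NEJ677 it was at 596 and 588, 1054 and 1035, and 619 and 651 CPM. Margin and interior stood apart in NEJ634 and NEJ687, rested on too few UMIs in NEJ723, and were level where the gene was abundant. Its fold change in the first trio was 3.24 (log2 1.69 ± 0.12, adjusted p = 5.7e-07), against a log2 fold change of 0.01 ± 0.06 in the second. The spread behind the SE and p was estimated over all 6 sections, those of the second trio included. They therefore do not measure the spread of the first trio alone, where the change rests on NEJ634 and NEJ687.

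Cyp2c29 (chr19:39269405-39330713) followed the same order, at 65.7 and 27.4 CPM in NEJ634, 0.176 and 0.0946 in NEJ723, and 116 and 46.8 in NEJ687, with a log2 fold change of 1.25 ± 0.09 (adjusted p = 5.7e-07). Like those of Cyp2c50, its levels in NEJ723 rest on too few UMIs, and its SE and p draw on the second trio as well. Cyp4a10, a fatty acid hydroxylase, Cyp2a5, a pericentral enzyme, and Cyp2c37 rose by 1.27, 1.23 and 1.19 on the log2 scale. Cyp2a5 was at 50.6 and 18.8 CPM in NEJ634 and 108 and 42.7 in NEJ687, but at 2.47 and 2.43 in NEJ723. Counted by symbol after the values were seen, 13 of 61 Cyp genes rose and 3 fell in the first trio. Over all genes tested, 1.17% rose and 3.43% fell in that trio. Of the 61 Cyp genes, 0 passed over the 6 sections or in the second trio. Members of the Cyp2c family are similar in sequence, and reads may be divided among them.

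Outside the tissue, Cyp2c50 and Cyp2c29 were above the margin level in NEJ634 and NEJ687. Spots 2 or more steps outside held Cyp2c50 at 42.0 CPM in NEJ634 and 65.5 in NEJ687, and Cyp2c29 at 82.4 and 160 CPM. Cyp2a5 and Cyp4a10 were below the margin off tissue in NEJ634, at 40.8 and 18.3 CPM against 50.6 and 22.1, and in NEJ687 they were at 109 and 30.0 against 108 and 24.9. Of the 152 genes that rose in the first trio, 88 (57.89%) were above the interior in the off-tissue spots of all 3 sections, against 20.45% of all genes tested with a positive change. Of the 152, 20 (13.16%) were above the margin too, against 5.685%. Of the 444 that fell, 357 (80.41%) were below the interior off tissue in all 3, against 48.52% of those with a negative change, and 36.94% were below the margin too, against 30.16%. Of the 17 genes higher over the 6 sections, 12 (70.59%) were above the interior off tissue in every section, and 11 (64.71%) above the margin too, against 7.005% and 2.778%. Of the 6 genes that fell over the 6 sections, 33.33% were below the interior off tissue in every section, against 34.27%. But 4 of the 6 were under 1 CPM in every pool of the second trio, where this criterion says little. In the first trio these 4 were below the interior off tissue in each section. Igf2 was at 154, 234 and 207 CPM there, against 291, 416 and 445 in NEJ634, NEJ723 and NEJ687. Fcna and Emc1 were below the interior off tissue in 6 of 6 sections. These shares use the same margin and interior pools that set the calls. A called gene is therefore favoured for lying beyond the interior off tissue, and the shares are description only. The source of the off-tissue RNA was not tested.

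**Figure D4:**
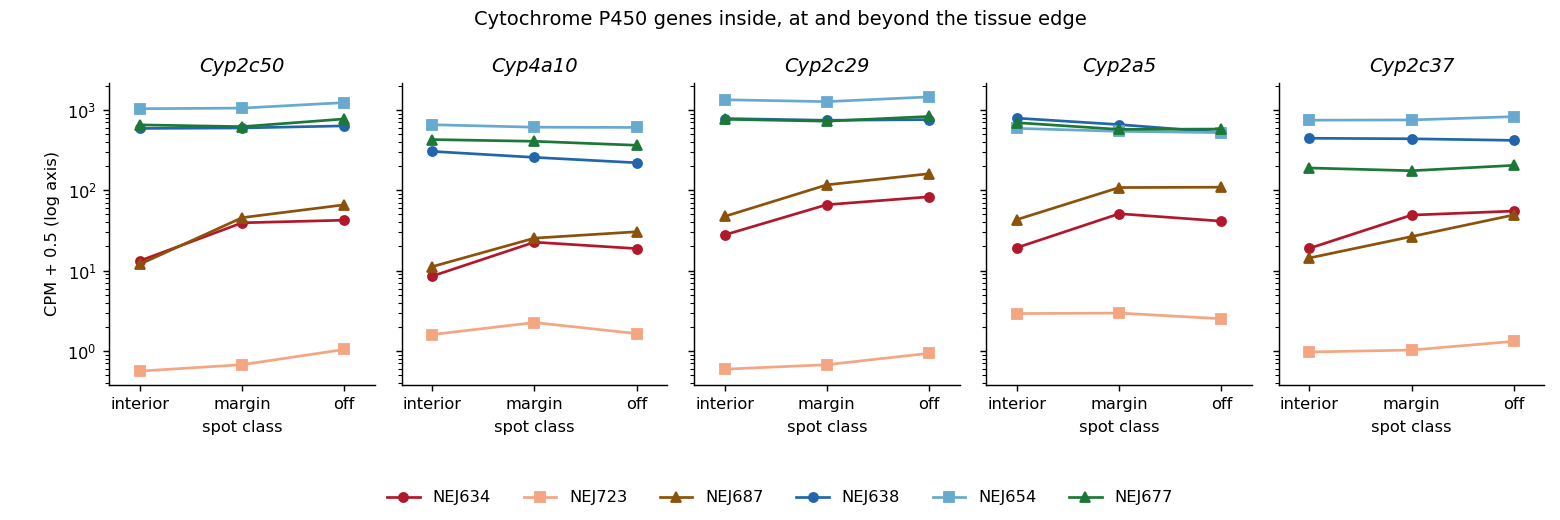
CPM plus 0.5 (log axis) of 5 cytochrome P450 genes in the interior, at the margin and in off-tissue spots 2 or more steps outside, with 1 line per section. In NEJ634 and NEJ687 the lines climb from the interior to the margin, and in NEJ638, NEJ654 and NEJ677 they are flat at a high level.

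Zonation genes moved unevenly in the first trio. Over all genes tested there, 1.17% rose and 3.43% fell, so the few calls below are not read as a result about zonation. Of 11 pericentral genes, Cyp2a5 and Cyp2e1 rose and 0 fell, with a median log2 fold change of 0.47. Their summed level was 417 CPM at the margin and 266 in the interior of NEJ634, and 347 and 283 in NEJ687. In NEJ723 it was level, at 86.4 and 86.5 CPM. Of 11 periportal genes, Pck1, the rate-limiting enzyme of gluconeogenesis, rose by 0.92 ± 0.10 and Hsd17b13, a lipid droplet enzyme, fell by 0.31 on the log2 scale, with a median of -0.03. Pck1 was at 277 and 148 CPM in NEJ634, 15.2 and 10.2 in NEJ723, and 548 and 240 in NEJ687, and the margin was higher in all 3. Over the 6 sections and in the second trio, 0 genes of either list passed.

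Of 8 oncofetal genes, Igf2 and Afp fell at the margin of the first trio, while 5 of the 8 had a positive change and the median log2 fold change was 0.11. Igf2 (chr7:142650766-142666816, minus strand), a fetal growth factor, was at 204 and 291 CPM in NEJ634, 357 and 416 in NEJ723, and 254 and 445 in NEJ687. The margin was lower in 3 of 3, with a log2 fold change of -0.55 ± 0.08 (adjusted p = 0.0016). Afp was at 3213 and 4570 CPM, 2874 and 3384, and 3041 and 4142 in the same order, and changed by -0.45 ± 0.07 (adjusted p = 0.0018). Over all 6 sections Igf2 alone of the 8 did. The 12 mitosis genes gave 0 calls in any comparison, with median log2 fold changes of -0.02 over the 6 sections and -0.04 in the first trio.

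The 6 genes that fell and were named by the same rule in the first trio were of several kinds. Dct, a dopachrome tautomerase best known from pigment cells, was at 5.47 and 12.6 CPM in NEJ634, 3.17 and 3.53 in NEJ723, and 8.11 and 26.6 in NEJ687 (log2 fold change -1.18 ± 0.19, adjusted p = 0.0029). Itgad, an integrin subunit of macrophages, was at 1.17 and 3.23, 25.4 and 36.3, and 2.32 and 9.06 CPM (log2 fold change -0.82). Serpina1e, an alpha-1 antitrypsin of hepatocytes with near-identical copies, was at 400 and 731, 637 and 812, and 357 and 568 CPM (log2 fold change -0.68 ± 0.08, adjusted p = 0.00018). In all 3 genes the margin was lower in each section, least so in NEJ723. Aqp8, a water channel, Mmd2 and Slc6a19, a neutral amino acid transporter, changed by -0.71, -0.71 and -0.68. The call of Mmd2 was lost without NEJ687, and that of Slc6a19 when any 1 of the 6 sections was left out.

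Acute phase genes split in the first trio, with 3 of 13 higher and 5 lower. Orm1 and Orm2, which encode alpha-1 acid glycoproteins, and Saa1, a serum amyloid A, rose by 0.78, 1.45 and 1.498 on the log2 scale. The fibrinogen chains Fga, Fgb and Fgg fell by 0.35, 0.31 and 0.33, together with Saa3 and Itih4. Orm1, Orm2 and Saa1 were higher at the margin in NEJ634 and NEJ687 and lower in NEJ723. Of 10 cholesterol synthesis genes, 3 fell, among them Insig1 and Sqle, with a median of -0.23, and of 8 fatty acid synthesis genes Srebf1, their transcriptional regulator, fell. Of 10 interferon response genes, Isg15 and Rsad2 rose and Bst2 fell. In the lists of hypoxia response (12 tested), immediate early and heat shock genes (11) and actin cytoskeleton and S100 genes (12), Ndrg1 fell, Zfp36 rose and Tmsb4x rose, each as the 1 call of its list. Of all genes tested, 1.17% rose and 3.43% fell in the first trio, so single calls are not read as a result about a list. The 9 antigen presentation genes gave 0 calls. None of these 8 lists had a call over the 6 sections or in the second trio.

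In the second trio, 3 of the 6 genes that rose were mitochondrial. There mt-Nd5, mt-Nd3 and mt-Atp6 rose by 0.72, 0.70 and 0.63 on the log2 scale (adjusted p = 0.028 for each), and the median over the 13 genes was 0.64, against 0.56 in the first trio. The other three that rose were Igfbp6, Slpi and a gene model with a Gm name. Igfbp6 (chr15:102144362-102149511), a binding protein of insulin-like growth factors made by fibroblasts, was at 8.12 and 1.87 CPM in NEJ638, but at 0.0897 and 0.0525 in NEJ654 and 0.374 and 0.0397 in NEJ677. Slpi, a secreted peptidase inhibitor named after its values were seen, was at 14.01 and 3.32 CPM in NEJ638, 0.717 and 0.315 in NEJ654, and 1.31 and 0.993 in NEJ677. Both rest on NEJ638, and without that section 0 genes were higher in the second trio, against 10 without NEJ723 and 17 without NEJ687.

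The summed level of mesothelial genes was higher at the margin, beyond counting error, in 2 of the 6 sections. Only 1 of the 12 genes passed the filter on low counts, and it gave 0 calls, so the list is described by its summed level, with exact 95% Poisson intervals that cover counting error only. In NEJ634 the sum was 18.2 CPM at the margin (15.3 to 21.5) and 6.07 in the interior (5.27 to 6.94). In NEJ638 it was 23.7 (20.97 to 26.76) and 5.03 (4.08 to 6.13). In the other 4 sections it was 0.936 to 1.41 CPM at the margin and 0.755 to 1.82 in the interior, with overlapping intervals. At 1 step outside the tissue the sum was above the margin in both NEJ634 and NEJ638, at 34.8 and 55.5 CPM. Msln, the mesothelin gene, gave 43 of the margin UMIs of NEJ634 and 109 of those of NEJ638, and 0 to 2 in the others. After thinning to 2000 UMIs, 3.67% of margin spots in NEJ634 (9 of 245, exact binomial interval 1.69 to 6.86) and 3.05% in NEJ638 (1.79 to 4.84) held such a UMI, against 1.54% (0.917 to 2.43) and 0.907% (0.497 to 1.52) of interior spots. The intervals of margin and interior overlap in NEJ634, and shares this low follow from the level itself and say nothing of how evenly it was spread. Unthinned, the shares were 31.4% and 18.3% at the margin and 14.5% and 5.44% in the interior.

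Fibroblast and collagen genes stood furthest above the interior in the same 2 sections, in NEJ634 mainly on the rim of an enclosed off-tissue area. On the outside rim of NEJ634 they were at 1826 CPM against 1516 in the interior. The summed level was 2613 and 1516 CPM in NEJ634 and 1324 and 556 in NEJ638. It was 551 and 456 CPM in NEJ723, 507 and 422 in NEJ687, 411 and 376 in NEJ654, and 252 and 296 in NEJ677, where the margin was lower. At 1 step outside the tissue the summed level was 2373 CPM in NEJ634, below the margin, and 1714 in NEJ638, above it. Of the 13 genes tested, 0 passed over the 6 sections, with a median log2 fold change of 0.46, and Col5a1, a fibrillar collagen, and Dcn, a collagen-binding proteoglycan, rose in the first trio. In NEJ638 the level was 942 CPM beside off-tissue patches of 50 or more spots and 1707 on the rims of smaller gaps, where smooth muscle genes (85.3 and 176 CPM) and bile duct genes (94.1 and 311 CPM) were higher as well. Mesothelial genes in NEJ638 ran the other way, at 33.7 CPM beside the larger patches and 13.7 on the gap rims.

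**Figure D5:**
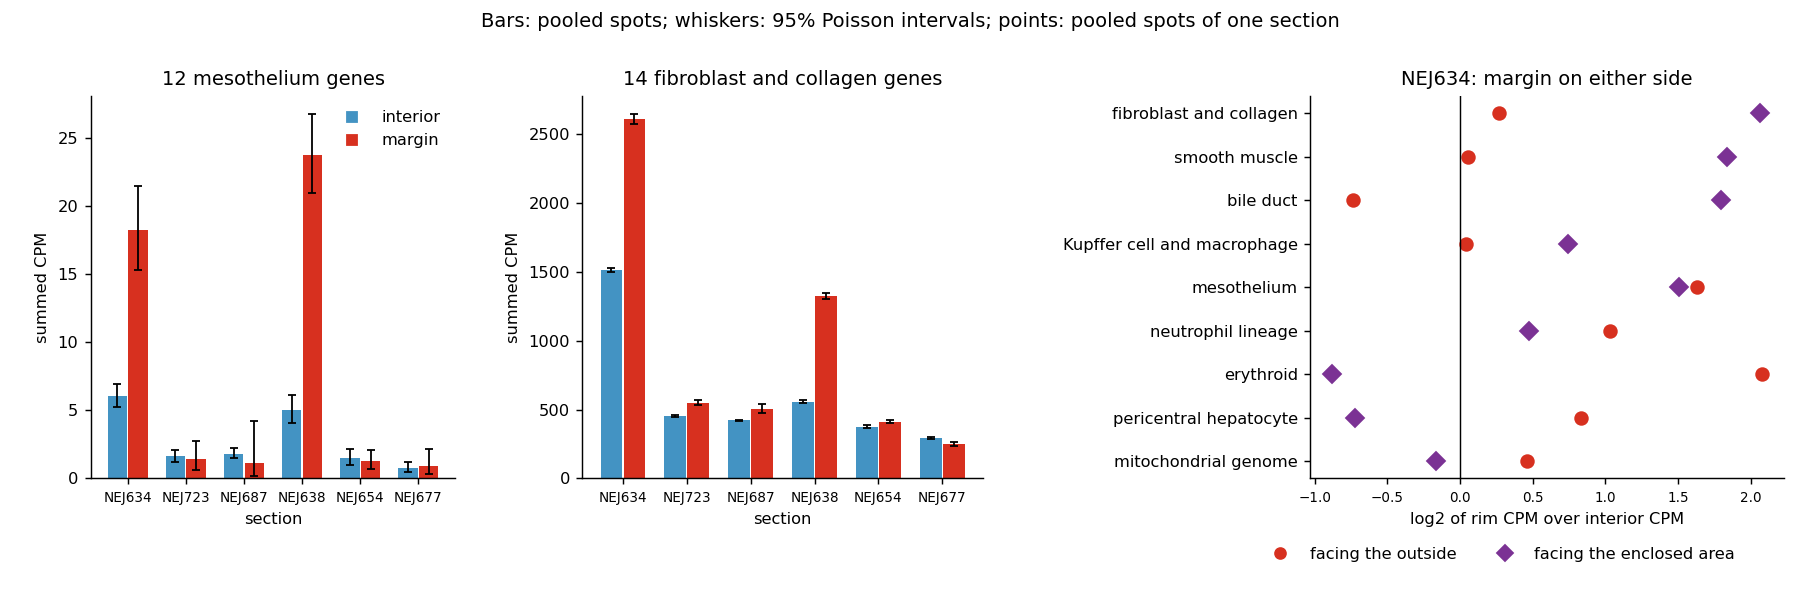
Summed CPM of the mesothelium list and of the fibroblast and collagen list at the margin and in the interior of each section, with bars starting at 0 and exact 95% Poisson intervals, and beside them the levels of marker lists on 2 kinds of rim in NEJ634. Margin and interior bars stand clearly apart in NEJ634 and NEJ638 and lie close together in the other 4 sections.

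NEJ634 enclosed an off-tissue area of 231 spots inside its outline, and some marker lists had unequal levels on its rim and on the outside rim. Its 64 enclosed-rim spots and 175 outside-rim spots were taken apart after the map had been seen, in 1 section and with no test. Fibroblast genes were at 6338 CPM on the enclosed rim, 1826 on the outside rim and 1516 in the interior. Bile duct genes were at 2479, 427 and 713 CPM, and smooth muscle genes at 494, 144 and 139 CPM. The enclosed rim was thus the higher for these 3 lists. The summed mesothelial genes were at 17.2 CPM (10.9 to 25.8) on the enclosed and 18.8 (15.5 to 22.5) on the outside rim. Of these, Msln was at 2.25 CPM (3 UMIs) and 6.42 (40 UMIs), and Upk3b, a uroplakin of mesothelium, at 0.749 (1 UMI) and 3.85 (24 UMIs), with overlapping intervals. The order was opposite for erythroid genes, at 320, 2488 and 589 CPM, for mitochondrial genes, at 32169, 49756 and 36080 CPM, and for Cyp2c50, at 5.99, 46.6 and 12.8 CPM. In the off-tissue spots of the enclosed area Cyp2c50 was at 9.49 CPM, against 50.02 in those outside. Erythroid genes had the same order off tissue, at 562 and 2061 CPM. Mitochondrial genes had the opposite order there, at 96356 CPM in the enclosed area and 87093 outside, although the enclosed rim was below the interior. How the off-tissue levels relate to those of the rims was not tested.

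The remaining cell type lists gave few calls or none over the 6 sections. Of 14 Kupffer cell and macrophage genes, 8 lymphocyte genes, 7 smooth muscle genes, 7 bile duct genes, 10 hepatic stellate cell genes and 12 sinusoidal endothelium genes, 0 passed, with median log2 fold changes of -0.10, -0.11, 0.47, 0.12, 0.14 and -0.02. In the first trio Reln, a stellate cell gene, and Lyve1, a hyaluronan receptor of sinusoidal endothelium, rose and Cldn7, a claudin of the bile duct list, fell. Each was the 1 call of its list, where 1.17% of all genes tested rose and 3.43% fell. Of tissues that could adhere to a liver, adipocyte and skeletal muscle had 1 gene tested each, exocrine pancreas none and enterocyte 4, and the only call was Rbp2, which fell in the first trio. The summed level of exocrine pancreas genes was at most 1.12 CPM in any margin pool. That of enterocyte genes was 879, 7930 and 1047 CPM at the margin of NEJ634, NEJ723 and NEJ687. In their interiors it was 1088, 8690 and 981 CPM.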

How the data were processed

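For each section the authors deposited an unfiltered matrix of whole-number UMI counts and a position file giving each spot's array row, column and in-tissue call. The submitters' processing notes name Space Ranger 1.3 and the mm10 build. For its spatial work the study describes perfusing the ABC-Myc mouse through the heart with EDTA in buffered saline, and then with collagenase, before taking the tumour. The tissue was flash-frozen before it was sectioned, and no count was normalised before deposit. The matrices list 31053 genes, and gene positions came from GENCODE M21 on GRCm38, in which 30934 of their identifiers were found.

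Counts were summed per section and side and tested with edgeR 4.0.16 (R 4.3.3; TMM scaling, filterByExpr with a minimum count of 10, glmQLFit and glmQLFTest, section as a block), with Benjamini-Hochberg adjustment over all genes tested and a threshold of 0.05. Side effects of both trios came from 1 fit over the 6 sections, which share an estimate of the spread. Log2 ratios per section used CPM with 0.5 added. The 4 spot measures were tested by exact sign-flip permutation over sections. The scripts were tested on simulated data. The margin, interior and 27 gene lists (14 cell types and 13 programmes, 282 genes, of which 281 are in the files) were chosen with earlier results of these data known.

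Genes named over the 6 sections had an adjusted p under 0.05, the same sign in 6 of 6 sections and a mean of 5 CPM or more over the pools, and the 12 with the largest change in each direction were taken. Each trio gave the 6 largest by the same rule over its 3 sections. Gene models with Gm or Rik names were not named, and list members could be named whatever their value. Alternatives changed the tool (DESeq2 1.42.0), the scaling, the filter, the minimum UMIs, the depth of the interior, the kind of margin, the array frame and the block, matched spots on UMIs, or left out each section in turn. Matching on the mitochondrial share was added after the data were seen. With 1 section per tissue, p-values measure the spread between sections, and intervals on counts cover counting error only. A further tissue, NEJ146, without a position file among those used, was not used here. Values of some genes are not reported here.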

Additional observations from a re-analysis of the deposited data

Results flagged for a closer look

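In groups of 6 sections, chance alone sets 1 section apart by Dixon's criterion in about 1 of 20 groups. The 46 results with 10 or more UMIs in each pool were examined. For mt-Nd2 the log2 ratio of margin to interior in NEJ687 was 1.70, against 0.22 to 0.76 in the other 5 sections. For the hypoxia response list it was -0.16 in NEJ687, against -0.05 to 0.00 in the others.

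In 7 of the 46 results every section of the first trio lay on one side of 0 and every section of the second on the other. These differences between trios were not tested, and for the 4 genes among them the shared sign in the first trio was part of the rule that named them. Cyp2c29 and Slc6a19 had the same pattern but were not among the 46. The mean log2 ratio of the first trio minus that of the second was 1.17 for Cyp4a10 (1.03 and -0.14) and 1.14 for Cyp2a5 (0.92 and -0.22). It was -0.72 for Aqp8 (-0.56 and 0.16) and -0.79 for Serpina1e (-0.63 and 0.16). For summed lists it was 0.43 for hepatic stellate cell genes (0.35 and -0.07), 0.245 for immediate early and heat shock genes (0.19 and -0.06), and -0.11 for fatty acid synthesis genes (-0.07 and 0.04).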

How the results depend on the processing

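The counts of calls moved with most choices. Over the 6 sections, 17 genes were higher and 6 lower. These became 23 and 27 with DESeq2, 20 and 2 with RLE scaling, 20 and 2 with total counts, 144 and 479 with no filter on low counts, 7 and 2 with a minimum count of 50, 20 and 11 with the interior at 6 or more steps, 27 and 6 at 4 to 6 steps, 32 and 34 with only margin spots beside patches of 50 or more spots, 18 and 3 without spots near the array frame, 17 and 10 with spots matched on UMIs, and 10 and 41 with spots matched on the mitochondrial share. Leaving out each section in turn gave 4 to 20 higher and 0 to 7 lower.

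In NEJ634, NEJ723 and NEJ687, 152 were higher and 444 lower. These became 75 and 204 with DESeq2, 160 and 253 with RLE scaling, 183 and 151 with total counts, 241 and 1539 with no filter, 74 and 162 with the interior at 4 to 6 steps, 123 and 267 with spots matched on UMIs, 51 and 165 matched on the mitochondrial share, and 63 to 174 and 156 to 288 with a section left out. In NEJ638, NEJ654 and NEJ677, 6 were higher and 0 lower. The number higher was 115 with no filter (18 lower), 0 with a minimum count of 50, 20 with the interior at 4 to 6 steps, 15 with only margin spots beside patches of 50 or more spots, 2 without spots near the array frame, 2 matched on UMIs, 0 matched on the mitochondrial share, and 0 to 17 with a section left out (0 to 1 lower). At steps 2 and 3, 8 higher and 3 lower became 1 and 0 with DESeq2, 26 and 58 with no filter, 5 and 3 with a minimum count of 50, 15 and 4 with the interior at 6 or more steps, 19 and 2 at 4 to 6 steps, 10 and 1 with total counts, and 1 to 11 and 1 to 5 with a section left out. With the section not a block, all these counts were 0. DESeq2 gave no adjusted p for 4 of the 13 mitochondrial and 7 of the 10 erythroid genes over the 6 sections.

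Matching spots on the mitochondrial share takes out that difference by construction. The log2 fold changes over the 6 sections were then -0.0102 for mt-Nd5, -0.0041 for mt-Nd1, -0.0239 for mt-Nd3, -0.0738 for mt-Co2, -0.0631 for mt-Co1, -0.0555 for mt-Atp6 and -0.0849 for mt-Co3, and in NEJ638, NEJ654 and NEJ677 they were -0.0522 for mt-Nd5, -0.0811 for mt-Nd3 and -0.1029 for mt-Atp6. The log2 ratio of median UMIs per spot was -0.0713 without NEJ638 and up to 0.2031 with another section left out. No other gene named by the rule on size changed direction in the alternatives run. The causes of these shifts were not tested. Both sides were paired within their section by the block, and the replicate number, which is 1 for every tissue, pairs no samples across tissues.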
